A study of Mus musculus with 4 samples.

Results

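The genes described here encode Vcam1 and 8 related adhesion molecules of the immunoglobulin superfamily. They are Vcam1, Icam1 and Icam5, then Alcam, Mcam and Bcam, then the junctional adhesion molecules F11r, Jam2 and Jam3. These 9 of the 35857 genes listed were taken by symbol, each matching 1 row. The set was chosen by the TPM difference of Vcam1 between these Qk_KO and control libraries, which was already known, and the other members were added by name as its relatives. Their values between the groups are therefore a description, with no test. The 4 libraries came from cells of strain C57BL/6 taken from the cerebral cortex of embryonic mouse brains and grown as neural stem cells. All were sampled 24 hr after glial differentiation had been induced. The control group (n = 2) was wild type and the Qk_KO group (n = 2) had the genotype Qk-/-, a knockout of the gene of Quaking, an RNA-binding protein. The sources used here do not give how the allele was made, the age of the embryos or whether replicates were separate cultures. The p-values therefore measure the spread between these libraries, which may be technical in the controls. The 2 Qk_KO libraries differed in sex, with Xist at 0.04 and 62.5 TPM and Eif2s3y at 35.4 and 0 TPM, so their spread is not only technical.

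Adhesion molecules of this superfamily carry extracellular immunoglobulin domains, a membrane anchor and, in most members, a short cytoplasmic tail. VCAM1 and the ICAMs bind integrins. VCAM1 and ICAM1 are best known for arresting leukocytes on inflamed endothelium, where the NF-kB pathway induces them. In the brain VCAM1 also marks stem cells of the adult ventricular zone, which it helps to hold in their niche. ALCAM binds itself and CD6, MCAM and BCAM bind laminins, and the junctional adhesion molecules pair at cell contacts and bind the polarity protein Par3. Quaking binds RNA at a short core, ACUAAC or ACUAAU, more tightly where a UAAC or UAAU tetramer lies nearby.

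The 3' UTRs of the members were searched for this core, written as ACTAAC or ACTAAT on the transcript strand only, in 1 principal transcript per gene. It was found in 5 of 9 members, Vcam1, Alcam, Mcam, F11r and Jam2. In Vcam1, Alcam and Jam2 a TAAC or TAAT lay 1 to 20 bases from a core, on either side; in Alcam these tetramers are themselves parts of the neighbouring core. Of 12001 genes tested that had an annotated 3' UTR, 33.0% held a core and 13.6% held one with a tetramer at that distance. A match is a description of letters and no evidence of binding. The windows are shown because the gene knocked out encodes the protein that recognises such letters. Each is 5′ to 3′ on the transcript strand, from GENCODE transcripts of GRCm38, with the core in capitals.
Vcam1: tcttgtgtaatgACTAACctgatttaaatg
Alcam: tgagaaACTAATcaaagACTAATctctgtt
Jam2, first window: tgccttaccttcACTAACacatgagaagct
Jam2, other window: acctaactgcacACTAATcttctagttatt
Mcam: ttcctgcctgctACTAATtcagggtctcat
F11r: gggtggcccgagACTAATtacaaagttttc
The Vcam1 window is chr3:116110193-116110222 on the minus strand, and its core starts at base 667 of a 3' UTR of 928 bases. A shorter annotated Vcam1 transcript, with another 3' UTR of 1404 bases, held no core. The Alcam window is chr16:52250153-52250182 on the minus strand, in a 3' UTR of 2675 bases. The 3 other annotated Alcam transcripts end in 3' UTRs of 204 to 287 bases, with no core. The Jam2 windows are chr16:84824472-84824501 and chr16:84824656-84824685 on the plus strand, in a 3' UTR of 3109 bases. The other annotated Jam2 transcripts, with 3' UTRs of 1351 and 211 bases, held no core. The Mcam window is chr9:44142247-44142276 and the F11r window chr1:171463301-171463330, both on the plus strand. Icam1, Icam5, Bcam and Jam3 held no core in 3' UTRs of 871, 136, 483 and 982 bases.

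Qk was measured first as a check of the labels. It stood at 208 and 215 TPM in the controls and at 36.1 and 43.7 TPM in Qk_KO, a log2 difference of -2.38 (limma SE 0.12, Benjamini-Hochberg adjusted p = 0.00708), and both Qk_KO libraries were below both controls. Leaving out control replicate 1 ended that call (limma adjusted p = 0.0554), as did leaving out control replicate 2 (0.0772) or testing every gene with a value above 0 (0.108). The 12 listed markers of neural stem cells, the labelled cell type, differed widely in level. Over the libraries Sox2 lay between 195 and 239 TPM, Vim between 2346 and 3373 TPM and Fabp7 between 2354 and 3144 TPM. Others were lower, with Hes1 between 14.7 and 17.3 TPM, Prom1 between 8.38 and 20.3 TPM and Fut4 between 0.83 and 1.80 TPM. Qk_KO replicate 1 stood apart from the other 3 libraries in sex and in regional genes. Xist was at 0.04 TPM there and at 57.6 to 62.5 TPM in the rest, and Dlx2 was at 76.0 TPM there and at 1.70 to 2.60 TPM in the rest.

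Levels of the 9 genes spanned more than 2 orders of magnitude on the TPM scale, which is per transcript length and so allows genes to be compared. In the controls the order of the means was Jam2, Alcam, Vcam1, Mcam, Jam3, Bcam, Icam1, F11r and Icam5. Of neighbours in that order, Vcam1 and Mcam overlapped, and the values of the other neighbours did not. The gap between Alcam and Vcam1 was small, with the lowest Alcam value at 46.04 and the highest Vcam1 value at 45.98 TPM. In Qk_KO the order was Jam2, Mcam, Jam3, Alcam, Bcam, Vcam1, Icam1, F11r and Icam5, and Jam2 overlapped Mcam and Jam3 overlapped Alcam. Vcam1 thus stood in rank 3 or 4 of 9 in the control libraries and in rank 6 in both Qk_KO libraries. Icam5 and F11r had means of 0.363 and 0.718 TPM over the 4 libraries and were below the minimum of 1 TPM, so 7 of the 9 members entered the fit across genes.

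**Figure D1:**
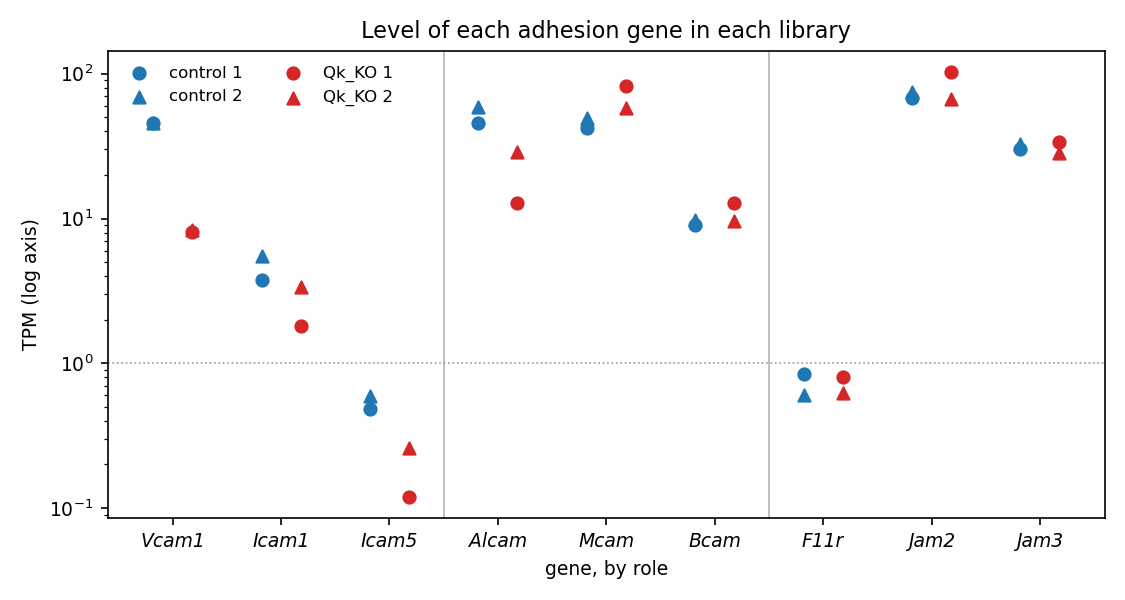
TPM of each of the 9 adhesion genes in each library on a log axis, with controls in blue and Qk_KO in red, replicate 1 as circles and replicate 2 as triangles; the dotted line marks 1 TPM and the grey lines part the 3 roles. The Vcam1 values form 2 tight pairs, near 46 TPM in control and near 8 TPM in Qk_KO, while Jam2, Jam3, Bcam and F11r overlap between groups.

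For Vcam1, Icam1, Icam5 and Alcam the higher Qk_KO value was under the lower control value, and for Mcam the lower Qk_KO value was over the higher control value; for Bcam, F11r, Jam2 and Jam3 the groups overlapped. Among the 7 members in the fit this makes 3 lower and 1 higher, where 27.5% and 33.6% of the 13260 genes tested lay apart in those directions (61.1% in either). By the call rule of limma (Benjamini-Hochberg adjusted p under 0.05) 1 of the 7, Vcam1, was called lower and 0 higher, where 1.42% of all genes tested were called lower, 1.83% higher and 3.24% in either direction. The count of members called was 0 with no filter on low genes and without either control library, and 2, with Alcam, without Qk_KO replicate 2. With no filter and the genes at 0 in all libraries kept, the count was 1, Vcam1. The members were chosen with this contrast known, so nothing is read from these counts. The median log2 difference of the 9 members was -0.02, beside 0.04 for all genes tested.

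Vcam1, the integrin ligand of the set with the highest level, maps to GRCm38 chromosome 3, 116109949 to 116129688, minus strand. In the controls it was at 45.4 and 46.0 TPM, and in Qk_KO at 8.01 and 8.33 TPM; pairs of values are given throughout as replicate 1, then replicate 2. The libraries of a group nearly coincided and the groups were far apart. The Qk_KO mean of 8.17 ± 0.226 TPM was 17.9% of the control mean of 45.7 ± 0.446 TPM (SD, n = 2 each), or 5.59-fold lower. On the log2(TPM + 1) scale the difference was -2.35 (SE 0.03 from the gene's own spread), the 28th most negative of the 13260 genes tested. The higher replicate exceeded the lower by a ratio of 1.01 in control and 1.04 in Qk_KO, the smallest ratios of the 9 members in either group. Leaving out each library in turn gave differences between -2.37 and -2.32, and without Qk_KO replicate 1, the library of other sex and high Dlx2, it was -2.32.

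Icam1, a ligand of leukocyte integrins, was at 3.75 and 5.50 TPM in control and at 1.82 and 3.34 TPM in Qk_KO. The groups did not overlap, but the highest Qk_KO value was close to the lowest control value. The Qk_KO mean was 55.8% of control and the log2 difference was -0.67 (SE 0.38), and between -0.98 and -0.36 with 1 library left out. Icam1 lies on chromosome 9 at 21015985 to 21028817 (plus strand), on the same chromosome and strand as Icam5 at 21032073 to 21039036. Icam5, or telencephalin, is an ICAM of forebrain neurons and was near the floor of the tables, at 0.48 and 0.59 TPM in control and at 0.12 and 0.26 TPM in Qk_KO. All 4 Icam5 values were under 1 TPM, and the read number behind them is unknown. The ratio of Vcam1 to Icam1 was 12.1 and 8.36 in the control libraries and 4.40 and 2.49 in the Qk_KO libraries, so the excess of Vcam1 over Icam1 transcripts was smaller in both Qk_KO libraries.

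Alcam, a homophilic adhesion molecule of growing axons and progenitors, lies on chromosome 16 at 52248996 to 52454074 (minus strand). It was at 46.0 and 58.9 TPM in control and at 12.7 and 28.9 TPM in Qk_KO. Both Qk_KO libraries were lower than both controls, with replicate 1 lower than replicate 2 by a ratio of 2.27, the widest replicate ratio of the 9 members. The Qk_KO mean was 39.6% of control and the log2 difference was -1.39 (SE 0.59). It was -0.83 without Qk_KO replicate 1 and -1.95 without Qk_KO replicate 2, so the size of the Alcam difference, unlike that of Vcam1, rested on which Qk_KO library was used.

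Mcam, a laminin-binding adhesion molecule best known from endothelium, pericytes and melanoma, lies on chromosome 9 at 44134469 to 44142727 (plus strand). It was at 42.0 and 49.3 TPM in control and at 82.0 and 57.8 TPM in Qk_KO. Mcam was the only one of the 9 members with both Qk_KO values above both controls. The Qk_KO mean was 1.53-fold the control mean and the log2 difference was 0.59 (SE 0.27), 0.34 without Qk_KO replicate 1 and 0.84 without Qk_KO replicate 2. Mcam and Vcam1 stood at like levels in control, with Mcam to Vcam1 ratios of 0.926 and 1.07, and at ratios of 10.2 and 6.94 in Qk_KO. The Mcam to Alcam ratio was 0.912 and 0.837 in control and 6.44 and 2.00 in Qk_KO. Bcam, the Lutheran laminin receptor (chromosome 7, 19756131 to 19771016, minus strand), was at 9.03 and 9.71 TPM in control and at 12.7 and 9.64 TPM in Qk_KO, and its groups overlapped.

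Jam2, or JAM-B, was the most abundant member in every library, at 68.2 and 74.8 TPM in control and at 103 and 66.5 TPM in Qk_KO. It lies on chromosome 16 at 84774123 to 84825928 (plus strand) and is known as a neuronal surface cue that keeps myelin off cell bodies and dendrites. Qk_KO replicate 1 was above both controls and replicate 2 below both, so no direction can be given: the log2 difference was 0.21 (SE 0.32) with all libraries and -0.10 without Qk_KO replicate 1. Jam3, or JAM-C, its binding partner (chromosome 9, 27097384 to 27155421, minus strand), was at 30.1 and 32.6 TPM in control and at 33.6 and 28.4 TPM in Qk_KO. The log2 difference of Jam3 was -0.02 (SE 0.13). The Jam2 to Jam3 ratio was 2.27 and 2.29 in control and 3.06 and 2.35 in Qk_KO. F11r, or JAM-A, a junctional protein of epithelia and platelets (chromosome 1, 171437535 to 171464603, plus strand), was at 0.84 and 0.60 TPM in control and at 0.81 and 0.62 TPM in Qk_KO. The signs of F11r, Jam2 and Jam3 each changed when a library was left out.

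**Figure D2:**
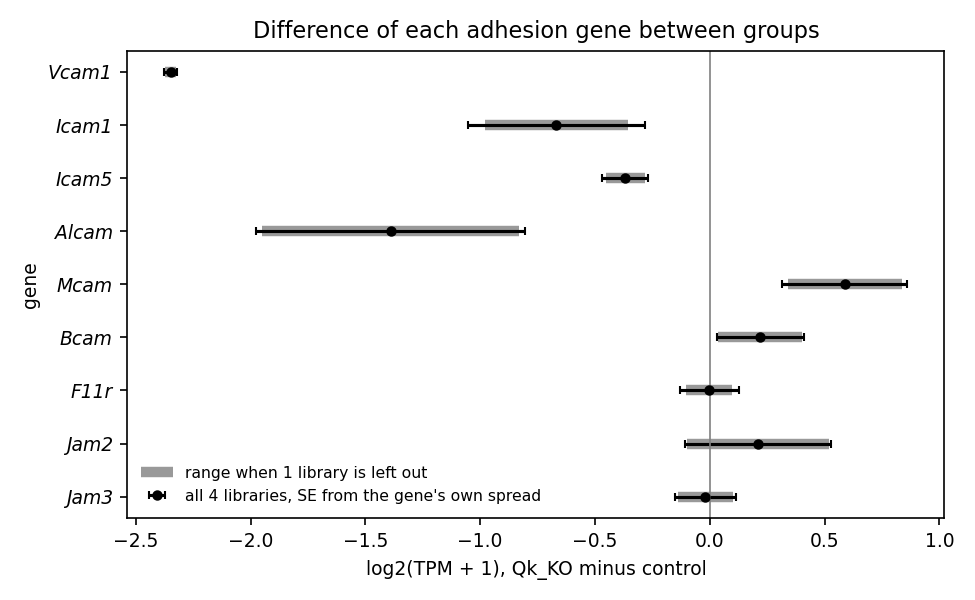
Difference in log2(TPM + 1), Qk_KO minus control, of each adhesion gene: points are all 4 libraries with the SE from the gene's own spread, and grey bars span the values obtained with 1 library left out. Vcam1 lies at -2.35 with a narrow bar, Alcam at -1.39 with a wide one from -1.95 to -0.83, and F11r, Jam2 and Jam3 span 0.

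As a set, the 9 genes summed to 246 and 278 TPM in control and to 255 and 204 TPM in Qk_KO, and these sums overlapped. What differed was the make-up. The set was chosen by the TPM difference of Vcam1, so a lower Vcam1 share follows from that choice. The shares are a description, with no test. Vcam1 held 18.5% and 16.5% of the summed TPM in control and 3.14% and 4.09% in Qk_KO. Mcam held 17.1% and 17.7% in control and 32.2% and 28.4% in Qk_KO. Alcam went from 18.7% and 21.2% to 4.998% and 14.2%, and Jam2 from 27.7% and 26.9% to 40.4% and 32.7%. The Jam2 share was thus higher in both Qk_KO libraries although its TPM was not, since a share also depends on the levels of the other members.

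**Figure D3:**
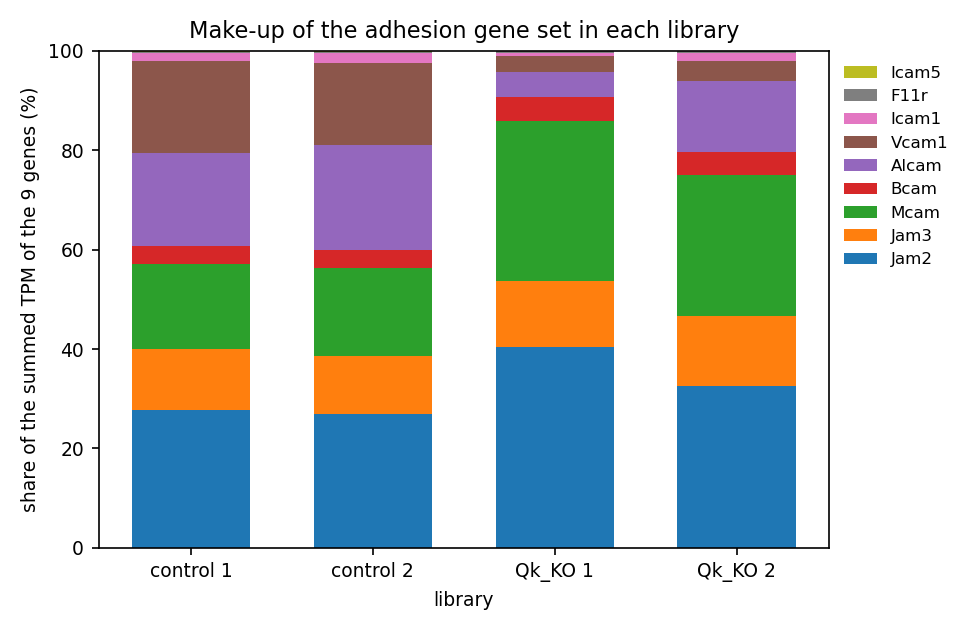
Share of the summed TPM of the 9 adhesion genes held by each gene, in percent, for each library as a stacked bar. Vcam1 takes 18.5% and 16.5% of the controls and 3.14% and 4.09% of the Qk_KO libraries, and Mcam takes 17.1% and 17.7% against 32.2% and 28.4%.

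The genes nearest to Vcam1 in profile were found by the Euclidean distance between log2(TPM + 1) values centred over the 4 libraries, a measure over 4 points that mainly reads the group difference. Vcam1 was chosen by that difference, so the ranking is a description and no evidence of a link between genes. Qk itself was the nearest named gene among the 13260 tested, at a distance of 0.157, followed by Gdf15, a stress-induced cytokine, at 0.191, and the keratin gene Krt28 at 0.391. Hmox1, heme oxygenase, followed at 0.702 and the choline transporter gene Slc44a1 at 0.719. Qk stood at 18.9% of its control mean in Qk_KO, beside 17.9% for Vcam1. Gdf15 stood at 20.8%, Krt28 at 4.32%, Hmox1 at 15.9% and Slc44a1 at 31.0%. Krt28 was at 0.20 and 0.12 TPM in Qk_KO, near the floor of the tables, so its distance depends on the pseudocount.

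Partners of the 9 proteins came from lists chosen with earlier results of these data known, and their genes were tested in the fit across all genes. Of the 13260 genes tested, limma called 1.83% higher and 1.42% lower, and 3760 had an unadjusted p under 0.05. Of 14 counter-receptor and ligand genes, 6 reached 1 TPM and limma called 0 in either direction, with 4 at an unadjusted p under 0.05 (median log2 difference 0.04, the same as for all genes tested). Itga4, the alpha chain of the main VCAM1 receptor, was at 0.09 to 0.21 TPM in every library, near the floor of the tables. Its beta chain gene Itgb1, shared by many matrix receptors, was at 266 and 365 TPM in control and at 220 and 198 TPM in Qk_KO (log2 difference -0.58, limma SE 0.17, adjusted p = 0.1001). Itga6, a laminin receptor chain, was at 60.5 and 60.9 TPM in control and at 83.6 and 78.2 TPM in Qk_KO (limma adjusted p = 0.0696). Lama5, which encodes the laminin chain that Bcam binds, was at 30.3 and 27.0 TPM in control and at 79.9 and 51.5 TPM in Qk_KO, with a limma adjusted p of 0.0528. It was called higher with a pseudocount of 0.1, at a mean of at least 5 TPM, without small RNA genes and without Qk_KO replicate 2. Both Lama5 values in Qk_KO exceeded both controls, next to a Bcam level that overlapped between groups. Itgb2, the beta chain gene of the leukocyte integrins that bind ICAM1, was at 2.03 and 1.84 TPM in control and at 0.81 and 0.65 TPM in Qk_KO (log2 difference -0.76, limma adjusted p = 0.104). The alpha chain genes Itgal, Itgam and Itgax were under 1 TPM in all libraries, and Cd6, the ALCAM receptor of T cells, was listed at 0 in all.

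Of 18 linker and scaffold genes 1 was called lower, 0 higher and 17 not (median 0.09), beside 1.42% lower and 1.83% higher of all genes tested. The one that fell was Msn, moesin, which ties the tails of VCAM1 and ICAM1 to actin, from 315 and 338 TPM to 164 and 161 TPM (log2 difference -0.999, limma SE 0.09, adjusted p = 0.0220). Its paralogs, which share that role, were not called: Ezr was at 122 and 110 TPM in control and at 152 and 126 TPM in Qk_KO, and Rdx at 176 and 155 against 139 and 118 TPM. Pard3, the polarity scaffold of the junctional adhesion molecules, was at 32.0 and 34.5 TPM in control and at 31.5 and 36.5 TPM in Qk_KO. Of 10 genes of the sheddase list in the fit 2 were called higher and 0 lower (median 0.05), beside the same shares of all genes. The 10 include Timp3, which encodes a protease inhibitor. Mmp14, a membrane metalloprotease, rose from 58.0 and 56.9 TPM to 136 and 102 TPM (log2 difference 1.02, limma adjusted p = 0.0426). Bace2, an aspartyl protease, rose from 1.5 and 1.66 TPM to 9.38 and 5.68 TPM (1.69, limma adjusted p = 0.0428). Adam17, the main protease that sheds VCAM1, was at 43.2 and 54.1 TPM in control and at 31.6 and 31.0 TPM in Qk_KO, below both controls and not called (-0.61, limma adjusted p = 0.0667). The calls of Msn, Mmp14 and Bace2 were each lost with no filter on low genes, without the trend, and without control replicate 1, control replicate 2 or Qk_KO replicate 1, with the direction kept.

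Genes of the NF-kB pathway, the textbook inducer of Vcam1 and Icam1, were not called by limma: 0 of 16 signalling genes and 0 of 12 target genes in the fit, with medians of 0.10 and 0.12. At an unadjusted p under 0.05 these counts were 5 and 5, beside 3760 of the 13260 genes tested. Il1rap, which encodes a chain of the interleukin-1 receptor, had the largest difference of the signalling list, from 19.8 and 33.3 TPM in control to 5.50 and 9.68 TPM in Qk_KO (log2 difference -1.68, limma adjusted p = 0.0544). Il1rap and the target gene Csf1 were called lower at a mean of at least 5 TPM and without small RNA genes, and Csf1 also with a pseudocount of 0.1. Rela, the main activating subunit, was at 75.6 and 76.7 TPM in control and at 74.7 and 79.9 TPM in Qk_KO. Tnfrsf1a, a TNF receptor gene, was at 110 and 142 TPM in control and at 71.5 and 91.9 TPM in Qk_KO (limma adjusted p = 0.0982). Nfkbia, the inhibitor gene that NF-kB itself induces, was at 76.6 and 68.3 TPM in control and at 92.5 and 93.5 TPM in Qk_KO (limma adjusted p = 0.0968). Among the other targets, Csf1 was at 171 and 210 TPM in control and at 120 and 102 TPM in Qk_KO (limma adjusted p = 0.0513), and Bcl2l1 at 105 and 92.8 against 125 and 150 TPM. The target genes thus lay on both sides, 6 below and 6 above 0. The part of these genes in the members' values was not tested.

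Further immunoglobulin adhesion genes were measured beside the members. Igsf11, a relative of the junctional adhesion molecules that binds itself, rose from 31.2 and 27.3 TPM to 52.4 and 46.8 TPM (log2 difference 0.74, limma SE 0.12, adjusted p = 0.0470), as 1 of 3 such relatives in the fit, and that call was lost with quantile normalization, with no filter, without the trend and without each of the 4 libraries. In 3 other lists limma called 0 genes in either direction, and 2, 5 and 7 genes had an unadjusted p under 0.05. Of all 13260 genes tested, limma called 1.83% higher and 1.42% lower, and 3760 had an unadjusted p under 0.05. The 7 further ligands of leukocyte type had a median of 0.28, all above 0, with Bsg at 567 and 619 against 738 and 731 TPM and Thy1 at 133 and 191 against 150 and 271 TPM. The 8 nectin and SynCAM genes had a median of -0.20, with Cadm4 at 554 and 501 against 434 and 451 TPM and Nectin2 at 87.3 and 97.9 against 89.0 and 78.2 TPM. The 18 neural genes such as Nrcam and Igsf8 had a median of -0.22, with Nrcam at 192 and 198 against 184 and 163 TPM and Igsf8 at 163 and 154 against 148 and 213 TPM. These relatives thus lay on both sides of 0. No other ICAM reached 1 TPM, with Icam2 between 0 and 0.32 TPM and Icam4 between 0 and 0.09 TPM.

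**Figure D4:**
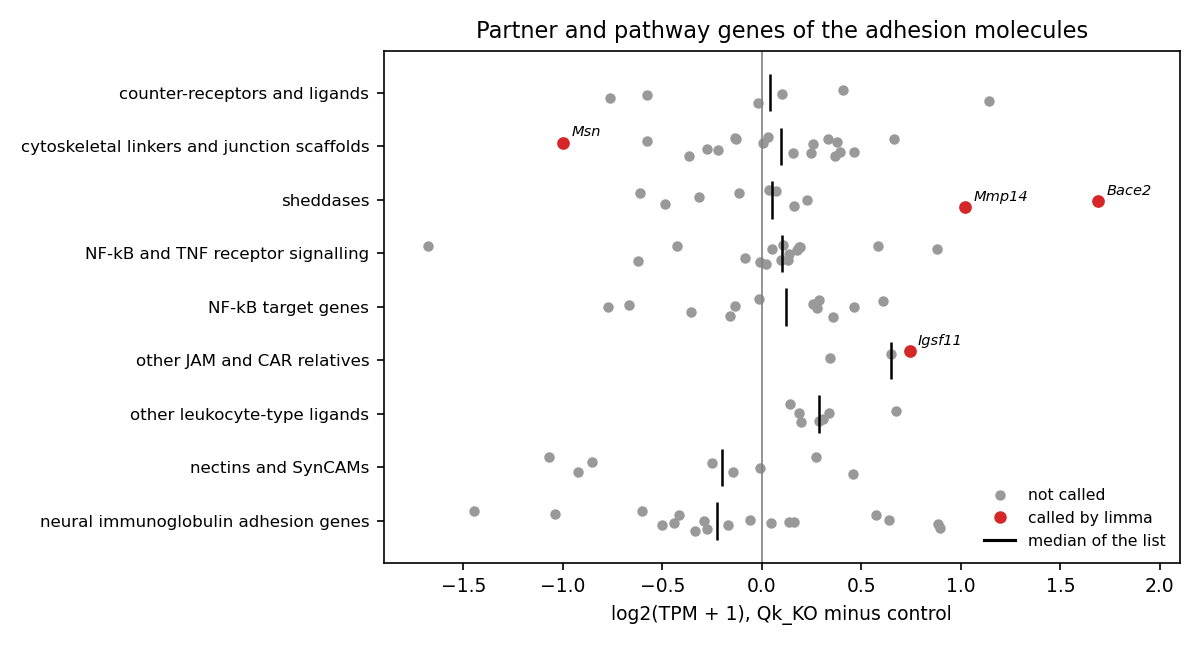
Difference in log2(TPM + 1), Qk_KO minus control, of each gene in the fit from 9 lists of partners, pathway genes and relatives: red points were called by limma, grey points were not, and black bars are list medians. Msn is called lower and Igsf11, Mmp14 and Bace2 higher, and the medians lie between -0.22 and 0.65.

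Vcam1, Icam1 and Mcam are also genes of vessels and blood-derived cells, so markers of such cells are given beside them. In bulk RNA, fewer cells of a type and less RNA per cell cannot be told apart. Of 15 endothelial markers, 3 reached a mean of 1 TPM, and limma called 0 (also 0 at an unadjusted p under 0.05). The defining genes Cdh5, Cldn5 and Pecam1 were at or below 0.26 TPM in all libraries, and the markers summed to 8.84 and 8.99 TPM in control and to 10.7 and 10.95 TPM in Qk_KO. The pericyte genes Rgs5, Kcnj8 and Abcc9 were at or below 0.53 TPM. Notch3, a receptor of mural cells in the same list, was at 12.9 and 11.9 TPM in control and at 34.9 and 22.3 TPM in Qk_KO (log2 difference 1.11, limma adjusted p = 0.0561), both Qk_KO values above both controls as for Mcam. The pericyte and fibroblast list summed to 1352 and 1186 TPM in control and to 3557 and 1664 TPM in Qk_KO, mostly through Acta2. Of its 6 genes in the fit, Notch3 and Acta2 lay above 0 and 4 below (median -0.05). Col1a1 was lower in both Qk_KO libraries, at 26.6 and 20.4 against 16.1 and 15.9 TPM. Pdgfrb, Col1a2 and Col3a1 lay below 0 with groups that overlapped. In this list limma called 0 of 6 genes, with 3 at an unadjusted p under 0.05. The 16 microglia and macrophage markers summed to 70.9 and 61.9 TPM in control and to 34.4 and 25.3 TPM in Qk_KO. All 11 in the fit had differences below 0 (median -0.95), and P2ry12 was at or below 0.04 TPM. Limma called 0 of the 11, with 9 at an unadjusted p under 0.05, beside 3760 of the 13260 genes tested. The part of these marker lists in the Vcam1, Icam1 and Mcam values was not tested.

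Among neural markers, the astrocyte list was mixed and the oligodendrocyte lineage list lay mostly lower beside Vcam1. Of 12 astrocyte markers 1 was called higher by limma, Aqp4, and 1 lower, Slc1a3 (median -0.09). Of 9 oligodendrocyte lineage markers in the fit 8 lay below 0 and 1, Pdgfra, was called lower (median -0.74). Of 12 neural stem cell markers 1 was called higher, Pax6 (median 0.16), and of 12 neuron markers 1 was called higher, Snap25 (median 0.34). Over all genes tested limma called 1.83% higher and 1.42% lower. The summed levels overlapped between groups for the astrocyte markers, at 3717 and 4256 against 4186 and 3793 TPM, and for the oligodendrocyte lineage, at 1246 and 1055 against 963 and 1167 TPM. They did not overlap for the neuron markers, at 849 and 635 against 1108 and 1164 TPM, or for the stem cell markers, at 6499 and 6176 against 6927 and 6686 TPM. The neuron sum was mostly Tubb3, at 275 and 126 against 512 and 383 TPM, and Gap43, at 267 and 258 against 305 and 421 TPM. Of the 12 neuron markers 4 lay apart higher and 0 lower, beside 33.6% and 27.5% of all genes tested. In the neuron list 10 differences were above 0 and 2 below. The oligodendrocyte lineage sum was mostly Olig1 and Olig2, which overlapped between groups, and the stem cell sum was mostly Vim and Fabp7. In the astrocyte sum Id3 was at 1842 and 1728 against 3170 and 2608 TPM. Apoe went the other way, at 1084 and 1620 against 327 and 559 TPM. The part of these lists in the members' values was not tested. In the annotation a gene on the opposite strand overlaps 6 of the 9 members, Vcam1 among them, and with the strand setting not given, reads from such pairs cannot be told apart.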

How the data were processed

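Per the labels' protocols, poly(A) RNA of 4 libraries was sequenced on an Ion Proton. Each library came as 1 table of gene TPM deposited by the authors, an abundance per transcript length and per library total. STAR 2.4.1d and RSEM 1.3.0 with builds mm10 and GRCm38.p4 are named in the submitters' processing notes, while annotation, filters and strand setting are not stated there. Read depth cannot be recovered from TPM, so no counting interval could be set.

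Genes averaging 1 TPM or more over the 4 libraries, 13260 of 35857, were fitted as log2(TPM + 1) for Qk_KO minus control with limma 3.58.1 in R 4.3.3 (lmFit, eBayes with a trend, two-sided, Benjamini-Hochberg over all genes tested, threshold 0.05). The fit was tested on simulated data. Members and lists were chosen with earlier results of these data known. The members' differences between the groups are given as a description, with no test. All 231 list entries were matched by symbol or Entrez number. From each pathway list the text names up to 4 called genes, or, with none called, the 2 most abundant, and in addition Itga4, Itgb1, Adam17, Rela and Nfkbia. It also names the 5 genes nearest to Vcam1 in profile, leaving out small RNA genes and predicted loci. Other genes named were chosen after their values were seen. Positions, transcripts and 3' UTRs came from GENCODE M21 on GRCm38. The alternatives changed the pseudocount (0.5, 0.1), the filter (none, for the 21835 genes above 0 in any library, or 5 TPM), the scaling (median ratio, quantiles), the trend, the block (replicate number), the small RNA genes (left out) or the libraries (each left out once). One more, with no filter and the genes at 0 throughout kept, was chosen after seeing the data. Python 3.11.15 and matplotlib 3.10.9 drew the figures.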

Additional observations from a re-analysis of the deposited data

How the results depend on the processing

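The count of 430 genes called (242 higher, 188 lower) was 0 with no filter in limma, where 4327 of 21835 genes had an unadjusted p under 0.05. It was 130 (30 and 100) when genes at 0 in all libraries were kept as well, an alternative chosen after seeing the data. It was 649 when genes had to average 5 TPM (304 lower), 41 with no trend in eBayes (23 and 18), 753 without small RNA genes (433 and 320) and between 4 and 148 with 1 library left out (0 to 88 higher, 4 to 60 lower). The 4 pathway genes called became 0 with no filter of either kind and without the trend, 10 when genes had to average 5 TPM and 10 without small RNA genes, and between 0 and 6 with 1 library left out. With 1 library left out, 6 to 8 members lay apart in place of 5. A lone value overlaps less, and the share of all genes apart in those settings was not computed. Nothing is therefore read from that rise. With the replicate number as a block, 1278 genes were called (753 higher, 525 lower), 17 of them in the pathway lists, among these Csf1, Il1rap, Ikbkb, Tnfrsf1a, Tradd and Lama5, and 2 members, Vcam1 and Alcam. The labels give no pairing beyond that number, and the deviations of libraries with the same number had a correlation of 0.114 across genes. For Qk the log2 difference was -2.38 with no filter of either kind, where the call was lost, and between -2.515 and -2.25 with 1 library left out, where it was lost without either control. Rela, not called, changed sign, to -0.0127 under median-ratio scaling and -0.0139 under quantile normalization, and lay between -0.0281 and 0.0677 with 1 library left out. The cause of these changes was not tested. Vcam1 lay between -2.47 and -2.32 under all 14 alternatives. With no filter 0 of 9 members were called, and 1, Vcam1, was called when genes at 0 in all libraries were kept as well. The read depth is unknown and limits what can be said of Icam5 and F11r.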
